A study of Mus musculus with 6 samples.

Results

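The embryonic whisker pad carried 2002 H3K4me1 regions inside protein-coding genes shorter than 200 kb, spread over 1186 genes. H3K4me1 is a single methyl group on lysine 4 of histone H3. The regions were found by merging the peaks of 3 H3K4me1 samples where they overlapped by at least 1 bp. A merged region was kept when it lay on chromosomes 1 to 19, had a peak in all 3 samples and was shorter than 15 kb. It also had to lie clear of every protein-coding start site by more than 1 kb, and its midpoint had to fall inside a protein-coding gene but outside coding exons. Every protein-coding gene over the midpoint had to be shorter than 200 kb. The 2002 regions were 22.6% of the 8840 regions on chromosomes 1 to 19 that had a peak in all 3 samples, and the peaks of the whole series merged into 19251 regions.

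The samples were whisker pads of B6/J2 mouse embryos at embryonic day 12, of wild-type genotype by the study's methods, dissociated to single cells. The assay was CUT&Tag: an antibody against H3K4me1 brings a transposase to the mark, which cuts out the DNA around it for sequencing. Replicates 1, 2 and 3 carry the pad numbers of the 3 H3K4me1 titles, and 3 IgG control samples were not analysed here. Each replicate is a whole pad, in which surface ectoderm, mesenchyme, vessels, nerve and early muscle are mixed, so a stronger region in few cells and a weaker one in many cells cannot be told apart.

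H3K4me1 marks nucleosomes at and around enhancers, whether these are in use or held ready. Many enhancers lie in introns, either of the gene that they act on or of a gene beside it, and long introns of developmental genes often hold several. The gene named beside a region below is the gene that it lies in. Its target gene was not measured.

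The replicates were not alike in what their lists held. The lists had 16788, 12969 and 13998 peaks in replicates 1, 2 and 3, and their summed signal was 822360552, 985881531 and 744342185. The source name of replicates 2 and 3 gives adult kidney, whereas the titles of all samples give whisker pad. Of 32 adult kidney marker genes, 8, 8 and 3 had a peak over the gene or 1 kb beside it in replicates 1, 2 and 3, against 59, 58 and 52 of 65 transcription factor genes of the facial mesenchyme. Replicate 3 stood apart. A peak lay over 6 of 31 surface ectoderm genes in replicate 3 against 17 in replicate 1 and 17 in replicate 2, and over 1 of 23 neuron and glia genes against 7 and 9. These counts by replicate have no share over all genes beside them, and the peak lists differ in size. Since a region needed a peak in every replicate, genes without a peak in replicate 3 could not be hosts, and values without replicate 3 are given beside the results that it touches.

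The sequences around the highest signal show what such a region looks like. They are shown for the region of highest mean signal rank in each of 8 gene lists, among the intronic regions whose 3 places of highest signal lay within 500 bp of one another and whose printed window overlapped no annotated exon. Each line gives 300 bases centred on the middle one of the 3 places, read on the plus strand of GRCm38 (mm10) from the RefSeq assembly. Capitals mark matches to the 19 short motifs searched below, on either strand.

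Lef1, chr3:131195995-131196294, plus strand: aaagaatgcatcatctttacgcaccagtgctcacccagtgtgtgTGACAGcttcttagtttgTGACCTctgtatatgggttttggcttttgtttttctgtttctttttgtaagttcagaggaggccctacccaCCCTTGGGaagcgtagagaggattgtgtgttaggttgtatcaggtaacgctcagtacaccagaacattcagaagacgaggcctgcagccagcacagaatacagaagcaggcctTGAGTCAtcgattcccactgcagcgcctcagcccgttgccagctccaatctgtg

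Ebf2, chr14:67303639-67303938, plus strand: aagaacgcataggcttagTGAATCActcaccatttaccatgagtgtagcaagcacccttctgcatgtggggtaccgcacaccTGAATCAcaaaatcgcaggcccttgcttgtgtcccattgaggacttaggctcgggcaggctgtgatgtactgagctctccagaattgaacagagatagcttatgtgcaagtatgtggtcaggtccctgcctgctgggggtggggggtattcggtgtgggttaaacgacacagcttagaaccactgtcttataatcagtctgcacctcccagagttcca

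Tcf7l2, chr19:55747228-55747527, plus strand: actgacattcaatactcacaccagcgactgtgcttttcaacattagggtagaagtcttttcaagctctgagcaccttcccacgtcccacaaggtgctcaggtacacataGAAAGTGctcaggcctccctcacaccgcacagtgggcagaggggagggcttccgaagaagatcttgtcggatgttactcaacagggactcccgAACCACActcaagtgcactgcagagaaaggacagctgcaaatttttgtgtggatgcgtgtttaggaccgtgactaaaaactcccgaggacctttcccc

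Fstl1, chr16:37788468-37788767, plus strand: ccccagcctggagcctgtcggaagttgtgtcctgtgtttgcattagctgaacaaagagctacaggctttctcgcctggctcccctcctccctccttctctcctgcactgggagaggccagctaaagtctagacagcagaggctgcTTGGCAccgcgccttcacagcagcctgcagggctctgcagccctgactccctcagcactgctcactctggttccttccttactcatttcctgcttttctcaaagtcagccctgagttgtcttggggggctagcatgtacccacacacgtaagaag

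Fgfr1, chr8:25527368-25527667, plus strand: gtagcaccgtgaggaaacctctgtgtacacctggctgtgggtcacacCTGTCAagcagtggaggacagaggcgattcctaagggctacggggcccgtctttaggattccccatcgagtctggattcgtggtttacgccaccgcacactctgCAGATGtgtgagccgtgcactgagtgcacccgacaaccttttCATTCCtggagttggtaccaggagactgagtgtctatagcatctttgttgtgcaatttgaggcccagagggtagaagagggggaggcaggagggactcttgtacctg

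Disp1, chr1:183190228-183190527, plus strand: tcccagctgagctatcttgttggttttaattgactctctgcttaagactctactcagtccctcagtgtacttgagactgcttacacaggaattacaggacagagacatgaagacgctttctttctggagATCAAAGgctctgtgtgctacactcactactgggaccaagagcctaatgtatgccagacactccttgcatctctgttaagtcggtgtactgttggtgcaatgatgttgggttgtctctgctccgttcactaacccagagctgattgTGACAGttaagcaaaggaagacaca

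Itgb5, chr16:33871911-33872210, plus strand: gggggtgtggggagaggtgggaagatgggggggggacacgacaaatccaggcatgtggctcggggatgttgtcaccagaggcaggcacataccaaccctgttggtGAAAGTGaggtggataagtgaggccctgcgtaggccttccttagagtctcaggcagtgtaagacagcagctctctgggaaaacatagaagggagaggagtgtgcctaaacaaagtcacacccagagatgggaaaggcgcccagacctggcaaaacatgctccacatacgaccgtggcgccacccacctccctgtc

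Actn1, chr12:80231060-80231359, plus strand: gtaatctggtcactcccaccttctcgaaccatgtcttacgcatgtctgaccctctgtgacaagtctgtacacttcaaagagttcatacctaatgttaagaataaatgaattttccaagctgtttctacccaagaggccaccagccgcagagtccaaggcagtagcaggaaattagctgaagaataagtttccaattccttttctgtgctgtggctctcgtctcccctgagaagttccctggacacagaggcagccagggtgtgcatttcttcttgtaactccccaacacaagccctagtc

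The Lef1 sequence lay in intron 8 of Lef1, which encodes a transcription factor that carries Wnt signals to DNA, and its 3 places of highest signal were 54 bp apart. It held 1 match each to the EBF, AP-1, MEIS and nuclear receptor motifs. The Ebf2 sequence, in intron 7 of a transcription factor gene of the facial mesenchyme, held 2 matches to AP-1. The Tcf7l2 sequence, in intron 3 of another Wnt transcription factor gene, held 1 match to RUNX and 1 to PRDM1. The Fstl1 sequence, in intron 2 of a gene for a secreted BMP-binding protein, held 1 NFI match. The Fgfr1 sequence, in intron 1 of an FGF receptor gene, held 1 match each to the Twist E-box, TEAD and MEIS motifs. The Disp1 sequence, in intron 1 of the gene whose product releases Hedgehog ligands from cells, held 1 TCF/LEF match and 1 MEIS match. The Itgb5 sequence, in intron 3 of an integrin gene, held 1 PRDM1 match. The Actn1 sequence, in intron 1 of the gene for the actin crosslinker alpha-actinin 1, held none of the 19 motifs, although the 3 replicates placed its highest signal at the same base. A match is a run of letters and not a bound site.

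Whisker genes came first among the lists, since the study followed them in the pad. Of 10 such genes under 200 kb, 3 held a region (30%, 95% Wilson interval 10.8 to 60.3), namely Lef1, Edar and Prdm1. Over all 19854 protein-coding genes under 200 kb on chromosomes 1 to 19 the share was 5.97%, and over genes of the same length classes it was 7.74%. Lef1 held 3 regions, all in introns. The region 28.9 kb from the start of Lef1 ranked at percentiles 90.5, 88.1 and 95.5 of total signal in replicates 1, 2 and 3. A percentile here is the share of the peaks in a replicate's own list whose total signal was no higher, and total signal is the pileup of fragments summed over the peak. Where a region held more than 1 peak in a replicate, its strongest peak gave the percentile. The region at 46.2 kb had percentiles of 84.2, 74.8 and 73.0, and the one at 85.7 kb had 73.7, 58.0 and 71.7. The order of the 3 regions was the same in each replicate, and it fell with distance from the start of the gene. The Lef1 sequence above came from the one at 85.7 kb, the only one of the 3 that met both conditions for printing.

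Edar, the receptor for ectodysplasin that promotes the placode, held 2 regions in its first intron. The one at 23.6 kb had percentiles of 44.7, 48.0 and 39.6. The one at 32.5 kb had 68.8 and 68.3 in replicates 1 and 2 but 8.57 in replicate 3, so its rank there was far below the other two. Prdm1, a transcriptional repressor, held 1 region of 2178 bp at percentiles 46.0, 40.2 and 26.5. Its highest signal lay outside the main transcript, which is the one ranked first by the annotation, and 1.26 kb from the outermost annotated start of the gene. The region itself reached across that start, which is not among the protein-coding start sites used by the rule. The nearest of those lay 68.9 kb from the midpoint of the region. The genes Bmp2, Bmp4, Gli1, Wnt10b, Sox2, Shh and Krt17 held no region, and 2 of these 7 had another kind of shared region over the gene or 1 kb beside it. No share over all genes is given here for that last count.

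The Hedgehog pathway had the highest share of the 16 gene lists, with a region in 7 of 14 genes (50%, 95% Wilson interval 26.8 to 73.2), against 14.6% for genes of the same length classes. Hedgehog signalling from the placode drives the mesenchyme beneath it to condense. Disp1 held 5 regions and Scube1, whose product helps to release the ligand, held 4. Sufu, an inhibitor inside the receiving cell, also held 4, and Ptch1, the receptor, held 2. Boc, a co-receptor, Hhip, an antagonist that binds the ligand, and Smo, the transducer, held 1 each. Hhip is named in addition to the 6 genes that the rule for naming gives. Without replicate 3 as a requirement, 9 of the 14 genes held a region, while the share over all genes under 200 kb rose to 7.84%.

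Ptch1 had strong regions in every replicate. Its region at 15.5 kb had percentiles of 97.2, 93.4 and 97.5, and the one at 50.5 kb had 98.2, 96.6 and 98.6. Disp1 ranged more widely. Its region at 31.1 kb had percentiles of 98.7, 98.5 and 99.7, with total signals of 310082, 405542 and 421639, while the one at 56.6 kb had 31.8, 8.61 and 12.8. The Smo region differed from the others in kind: it was 1636 bp long, 96.6% of it was repeat-masked, and its maximum signal was 451 in replicate 1, the highest of all 2002 regions there, against 179 and 72 in replicates 2 and 3.

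**Figure D1:**
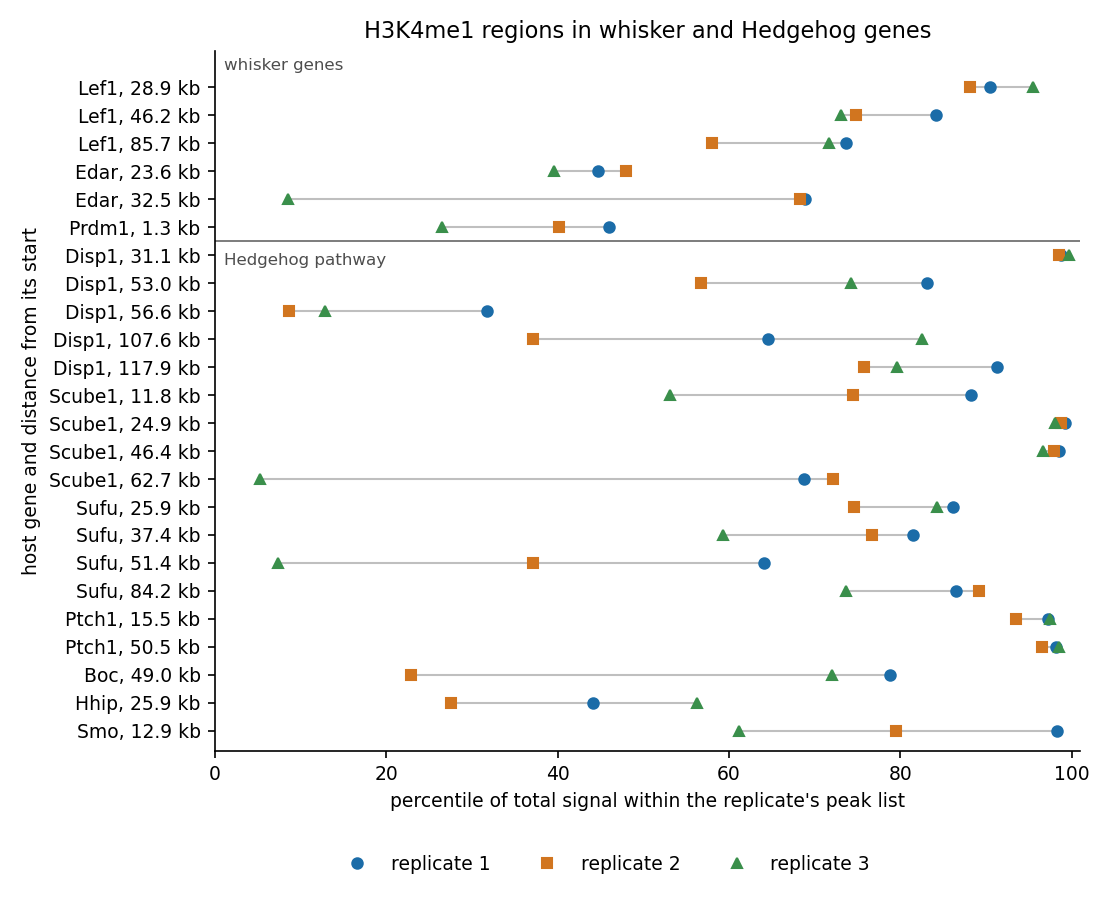
Percentile of total signal, within each replicate's own peak list, of the 6 regions in whisker genes and the 18 regions in Hedgehog genes. Each row is 1 region, named by its host gene and its distance from the gene's start, and the 3 symbols are the replicates; the Ptch1 regions sit above 93 in all of them, and the Edar region at 32.5 kb drops to 8.57 in replicate 3.

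Wnt pathway genes held 56 of the regions. Wnt signalling is needed early for the placodes of hair and whiskers. A region lay in 27 of 65 Wnt genes (41.5%, 30.4 to 53.7), against 12.2% for genes of the same length classes. Tcf7l2 and Tcf7l1, which encode relatives of Lef1, held 6 each, and Ror2, a receptor for Wnt5a, held 5. Znrf3, which removes Wnt receptors from the membrane, held 4, and Kremen1, which binds Dickkopf inhibitors, held 3. Lef1, with the 3 regions given above, is on this list as well.

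In Tcf7l1 all 6 regions lay in intron 3 of the main transcript and took up 65.1 kb of a gene of 162.9 kb. The strongest had percentiles of 97.2, 96.3 and 95.1, and the weakest 37.7, 33.4 and 26.2. The other 4 had mean percentiles of 88.8 to 95.9, so 5 of the 6 were in the upper ranks of every list. In Tcf7l2 the region from which the sequence above was taken had percentiles of 97.5, 96.5 and 98.8, and the other 5 had mean percentiles of 59.3 to 89.1.

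The share was 29.5% (13 of 44 genes, 18.2 to 44.2) for the BMP and TGF-beta pathway, against 11.97% for genes of the same length classes. Tgfbr3, a co-receptor for TGF-beta, held 9 regions, which no other gene exceeded. Their mean percentiles ran from 57.1 to 92.2, and 8 of the 9 lay above 60. The Tgfbr3 region at 89.3 kb had its highest signal at the same base in all replicates, with maximum signals of 248, 245 and 237, the last being the highest of all regions in replicate 3. Ski, a repressor of TGF-beta signals, and Tgfbr2, a receptor, held 5 regions each. Fstl1 held 4 and Smad3 and Smad1, which carry the signals to the nucleus, held 3 and 2. The strongest Fstl1 region, shown above, had percentiles of 98.9, 98.5 and 98.9 and maximum signals of 291, 312 and 216.

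Transcription factor genes of the facial mesenchyme held a region in 15 of 56 cases (26.8%, 17.0 to 39.6), against 7.46% for genes of the same length classes. Ebf2, Pax3 and Zeb2 held 3 each, and Ebf3, Pax7 and Meis1 held 2 each. These encode regulators of neural crest and mesenchymal cells. The strongest Ebf2 region had percentiles of 97.5, 97.0 and 98.4. The Pax3 region of 10369 bp had 90.3, 82.3 and 96.5, and the Pax7 region of 10609 bp had 91.8, 89.5 and 72.1, so the first was highest in replicate 3 and the second lowest there. The genes of this list were short, with a median of 13.9 kb. Of the 41 without a region, 26 had another kind of shared region over them or 1 kb beside them. The share over all genes for that count is not given here. A shared region lay at a start site in 35 of the 56, against 7.04% of all genes under 200 kb.

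Matrix and adhesion genes of mesenchyme held a region in 14 of 39 cases (35.9%, 22.7 to 51.6), against 15.5% for genes of the same length classes. Itgb5 held 5, Col4a2 held 4, Loxl2 and Col4a1 held 3, and Col5a1 and Col18a1 held 2. Their products are an integrin chain, collagen chains and a collagen crosslinking enzyme. The strongest Itgb5 region had percentiles of 94.5, 91.4 and 93.7 and the weakest 45.2, 36.8 and 42.7. The 5 Itgb5 regions ranked in the same order in each replicate, and the SD of the percentile over replicates was at most 7.60 in any of them.

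Genes of the actin and contractile cytoskeleton held a region in 8 of 32 cases (25%, 13.3 to 42.1), against 8.28% for genes of the same length classes. Actn1 and Cald1, for the actin-binding caldesmon, held 4 each, Pxn held 3, and Myh9 and Actn4 held 2. The strongest Actn1 region had percentiles of 99.3, 99.1 and 99.2 and maximum signals of 172, 163 and 177. Of all 2002 regions it had the smallest SD of the percentile over replicates, 0.0947.

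The shares were lower in the FGF and PDGF pathway, where 6 of 35 genes held a region (17.1%, 8.10 to 32.7, against 10.3% for genes of the same length classes). That list includes insulin-like growth factor genes. Sulf1, which trims heparan sulfate, held 6 regions, Igf2r held 4, Fgfr1 and Spred2 held 2, and Etv5 and Spry2, for a target and an inhibitor of FGF signals, held 1. Without replicate 2 as a requirement 10 of the 35 genes held a region, and without replicate 3 it was 9. The share over all genes under 200 kb also rose, to 7.11% without replicate 2 and 7.84% without replicate 3. Notch genes had 3 hosts of 22 (13.6%, against 6.61% for genes of the same length classes), namely Notch2, Jag1 and Rbpj. Retinoic acid genes had 2 of 17 (11.8% against 8.33%), with 6 regions in the nuclear receptor gene Rxra and 1 in Rara. The count was 5 without replicate 2 and 3 without replicate 3, beside the same raised shares over all genes. In each of these 3 lists the share of length-matched genes lay within the 95% interval of the list.

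Markers of other cell types held from 0 to 9 regions a list. Of 30 surface ectoderm genes 3 held one, among them Grhl3 and Grhl2, which encode epithelial transcription factors (10%, 3.46 to 25.6, against 3.56% for genes of the same length classes). The Grhl3 region had percentiles of 95.5, 96.2 and 89.5. Endothelial genes had 3 hosts of 21 (14.3%, 4.98 to 34.6, against 10.8% for genes of the same length classes), Fli1 with 6 regions, Pecam1 with 2 and Ets1 with 1. Pax7, which is also on the facial mesenchyme list, was the only host of 17 skeletal muscle genes (5.88%, 1.05 to 27.0, against 2.99%). The kidney list had 1 host of 31, the salt transporter gene Slc12a1, with percentiles of 57.0, 9.27 and 22.0 (3.23% against 5.93%). No host was found among 21 neuron and glia genes or 23 blood cell genes, whose intervals reach 15.5% and 14.3% and whose length classes gave 3.85% and 6.81%. For every list in this paragraph, too, the share of length-matched genes lay within the 95% interval of the list. When a peak in replicates 1 and 2 sufficed, the counts were 5 of 30 for surface ectoderm, 5 of 21 for endothelium, 2 of 17 for skeletal muscle, 1 of 21 for neuron and glia, 3 of 31 for kidney and 0 of 23 for blood cells, while the share over all genes was 7.84%.

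**Figure D2:**
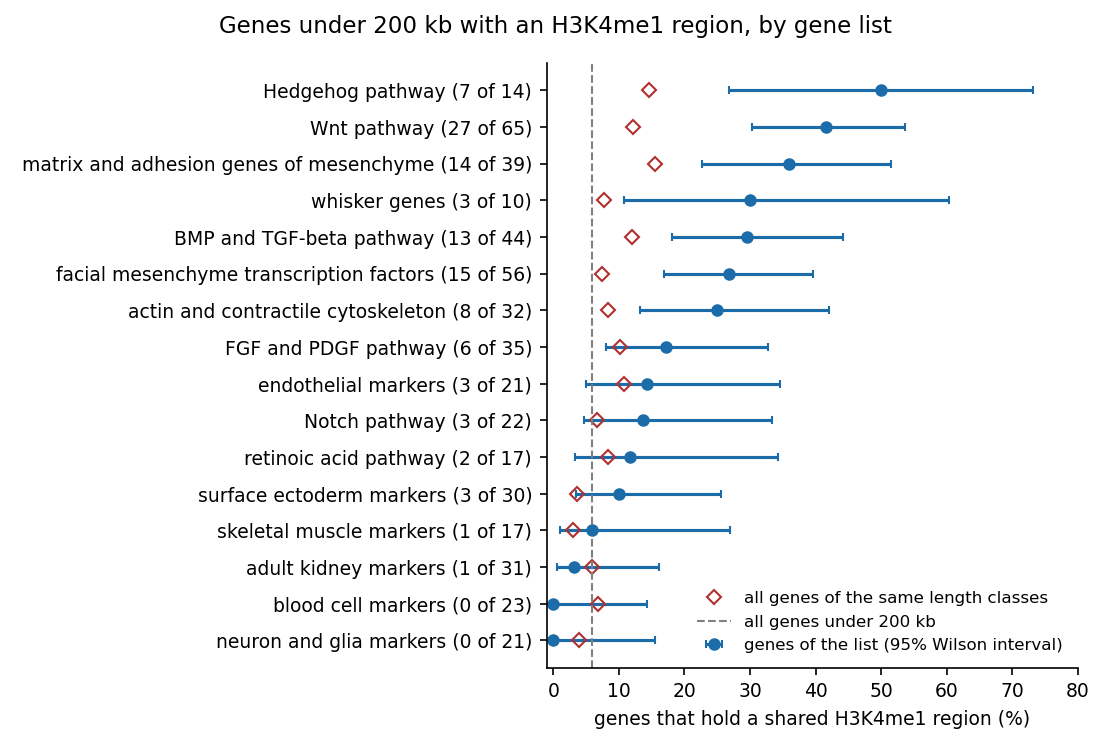
Share of the genes under 200 kb of each list that hold a region (blue, with the 95% Wilson interval), beside the share over all genes of the same length classes (red diamonds) and over all genes under 200 kb (dashed line, 5.97%). The Hedgehog list stands highest at 50%, and the neuron and glia and blood cell lists stand at 0.

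These shares are counts and were not tested. The lists were written with earlier results of these data known, and regions of 1 gene are not independent of each other. They go with gene length. Among genes sorted by length into 10 classes, 0 of 1986 genes in the shortest class held a region and 612 of 1986 (30.8%) in the longest. The median host gene was 85.0 kb long and the median gene under 200 kb was 16.2 kb long.

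Most host genes held a single region, and a few held many. A single region lay in 765 genes, while 421 genes held 2 or more, with 1254 regions among them, and 111 genes held 4 or more. Only 17 regions lay in 2 genes at once. Neighbouring regions of a gene were a median of 9.30 kb apart, and 33.9% of the 833 neighbouring pairs were within 5 kb. Tspan9, a tetraspanin gene, held 9 regions like Tgfbr3, and they covered 36.9% of the gene. Mpped2 and Myo10 held 8 each. Sh3rf1, Fyn, Abtb2, Lrch1 and Hlcs held 7, and Eefsec held 6. Myo10 encodes a myosin of filopodia and Fyn a tyrosine kinase, and Eefsec encodes the elongation factor for selenocysteine.

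Tspan9 and Tgfbr3 differed in how their regions ranked across replicates. The mean percentile of the 9 Tspan9 regions was 90.4, 85.6 and 74.0 in replicates 1, 2 and 3. That of the 9 Tgfbr3 regions was 83.9, 75.8 and 81.2. The strongest Tspan9 region, at 54.5 kb, had total signals of 320625, 353489 and 135943 and a maximum of 361 in replicate 2, the highest of all regions there. The Tspan9 region of 12661 bp had percentiles of 94.7, 96.0 and 52.2, and it fell most in replicate 3. It held 2, 1 and 3 peaks in replicates 1, 2 and 3, and its percentile is that of the strongest peak alone. Summed over its peaks, its total signals were 187425, 256331 and 88861. The part of this splitting in the lower percentile was not tested.

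Host genes often had H3K4me1 at their own start site too. Of the 1186 hosts, 354 (29.8%, 95% Wilson interval 27.3 to 32.5) had a shared region at a start site of the gene, against 10.7% of genes of the same length classes. Among the 421 hosts with 2 or more regions the share was 38.2% (33.7 to 43.0), against 12.1%. Among the 18668 genes without a region it was 5.59%. The rule keeps the regions away from start sites, so it does not fix these shares.

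The highest-ranking regions were spread over genes of many kinds. Among the 20 with the highest mean percentile were regions in Sept9, Actn1, Atoh8, Eefsec, Disp1, Nxn, Fstl1, Scube1, H2afy, Cpvl, Abhd2, Rai14, Cyth3, Capzb, Anxa2, Rassf3, Elovl5, Iffo2 and Msi1. Sept9, Actn1, Rai14 and Capzb encode proteins bound to the cytoskeleton, and Atoh8 and H2afy encode a transcription factor and a histone variant. The Sept9 region had total signals of 555503, 675251 and 338582, and percentiles of 99.7, 99.6 and 99.2. The Atoh8 region had 416293, 535900 and 271687, and percentiles of 99.5, 99.3 and 98.8. Signals were not scaled to depth, so totals are not compared between replicates. All 20 regions were above percentile 95 in every replicate, and 162 of the 2002 regions (8.09%) were above percentile 90 in every replicate. The lowest-ranking region lay in Ascc1, at percentiles 3.41, 4.60 and 2.25.

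The limits of the rule fell between regions of known size. The longest regions kept lay in Nrp2 (14958 bp, mean percentile 96.3) and Smad1 (14946 bp, 91.8), and the shortest left out for length lay in Ext2 (15154 bp, 97.7) and Vangl1 (15154 bp, 93.0). The longest host gene was Clec16a at 199540 bp, with 5 regions, of which 1 stood at mean percentile 26.1, and the shortest gene left out that held a region was Pcbp3 at 200031 bp, with one at 52.0.

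As a whole the regions had a median length of 5054.5 bp, from 355 to 14958 bp, and covered 11.6 Mb. Their median GC content was 47.4%, and a median of 15.9% of their bases were repeat-masked. They lay a median of 38.6 kb from the start of the host gene and 27.2 kb from the nearest protein-coding start site. Only 5 regions were repeat-masked over more than 50% of their length, in Smo, Lama1, Ppp6r1, Cpne5 and Has2. The Lama1 region was the shortest of all, at 355 bp, yet had a maximum signal of 444, 205 and 151 in replicates 1, 2 and 3. These 5 genes and those in the next paragraph were picked after their values were seen.

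The rank of a region was similar in replicates 1 and 2 and less so in replicate 3. Across the 2002 regions, Spearman's rho of total signal was 0.909 between replicates 1 and 2, 0.729 between 1 and 3 and 0.696 between 2 and 3. Regions share libraries and base composition and are not independent, so no p-value is given. The SD of the percentile over replicates had a median of 10.39, was under 5 in 504 regions and over 30 in 108. Of those 108 regions, 74 were lowest in replicate 3, 31 in replicate 2 and 3 in replicate 1. The region that varied most lay in Ephb2, an ephrin receptor gene, at percentiles 84.6, 83.8 and 1.56. The next lay in Tnfrsf19, at 73.0, 1.70 and 88.5, and was lowest in replicate 2.

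The rank of a region went with its GC content in opposite directions in replicate 3 and in the others. When the regions were divided into 5 groups by GC content, the median percentile rose from 60.1 in the group of lowest GC to 84.6 in the group of highest GC in replicate 1, and from 43.9 to 81.3 in replicate 2. In replicate 3 it went from 72.4 in the lowest group to 51.1 in the fourth and 54.7 in the highest. The share of signal in replicate 3 over that in replicate 2 had a median of 0.75 on the log2 scale in the group of lowest GC and -0.69 in that of highest GC. The same ratio of replicate 1 over replicate 2 went only from 0.06 to -0.08. The part of base composition in the difference between replicates was not tested.

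**Figure D3:**
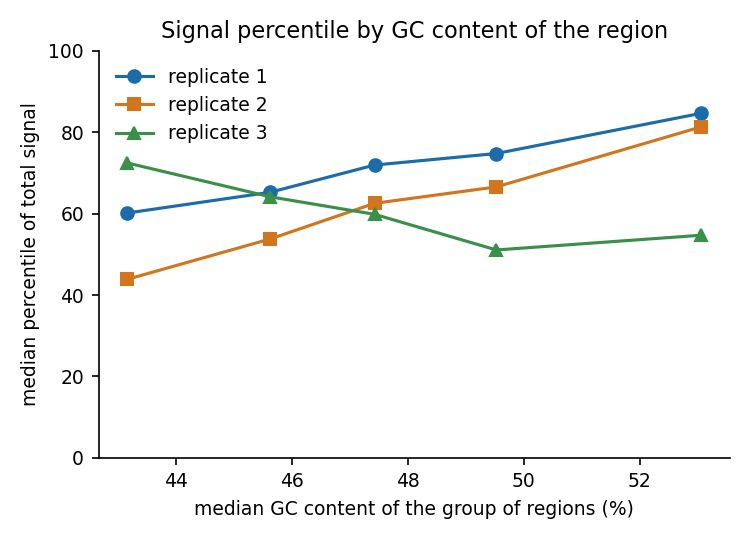
Median percentile of total signal in 5 groups of regions sorted by GC content, plotted at the median GC content of each group, 1 line per replicate. The lines of replicates 1 and 2 rise to 84.6 and 81.3, and the line of replicate 3 falls from 72.4 to 51.1 and ends at 54.7.

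Against other kinds of shared region, the sign of the difference in rank was the same in all replicates for 1 kind of 4. The regions in genes under 200 kb are compared here within each replicate. Their median percentile of total signal was 72.1, 63.3 and 61.5 in replicates 1, 2 and 3 (65.6 ± 5.69, mean ± SD, n = 3). The 947 intergenic regions within 50 kb of a start site ranked lower in every replicate, by 4.14, 2.76 and 3.84 points (mean 3.58 ± 0.725, SD, n = 3; exact two-sided sign-flip permutation test, p = 0.25). That is the smallest p that this test can give with 3 replicates. For the 1971 regions in genes of 200 kb and more the difference was 4.58, 6.28 and -5.27, and replicate 3 had the opposite sign (mean 1.86 ± 6.23, n = 3; exact permutation p = 0.75). For the 1656 intergenic regions beyond 50 kb it was 7.37, 9.27 and -2.80 (4.61 ± 6.49, n = 3; exact permutation p = 0.5). For the 1455 regions over start sites it was -2.31, -7.41 and 0.00714 (-3.24 ± 3.80, n = 3; exact permutation p = 0.5). The long-gene regions were less GC-rich, with a median of 45.6%, and the start-site regions more so, with 50.4%. Per base of peak length the difference from the nearby intergenic regions was -0.241 ± 1.355 (n = 3; exact permutation p = 0.75). For the start-site regions it was positive in every replicate on that scale, at 2.18, 0.921 and 4.20 (mean 2.43 ± 1.65, n = 3; exact permutation p = 0.25), and by maximum signal its mean was 2.33, so the direction depended on the measure. When replicate 3 was left out of the rule and the comparison, the 4 mean differences in the order given were 1.36, -0.0237, 2.54 and -3.60. These p-values measure only the spread between the 3 pads.

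**Figure D4:**
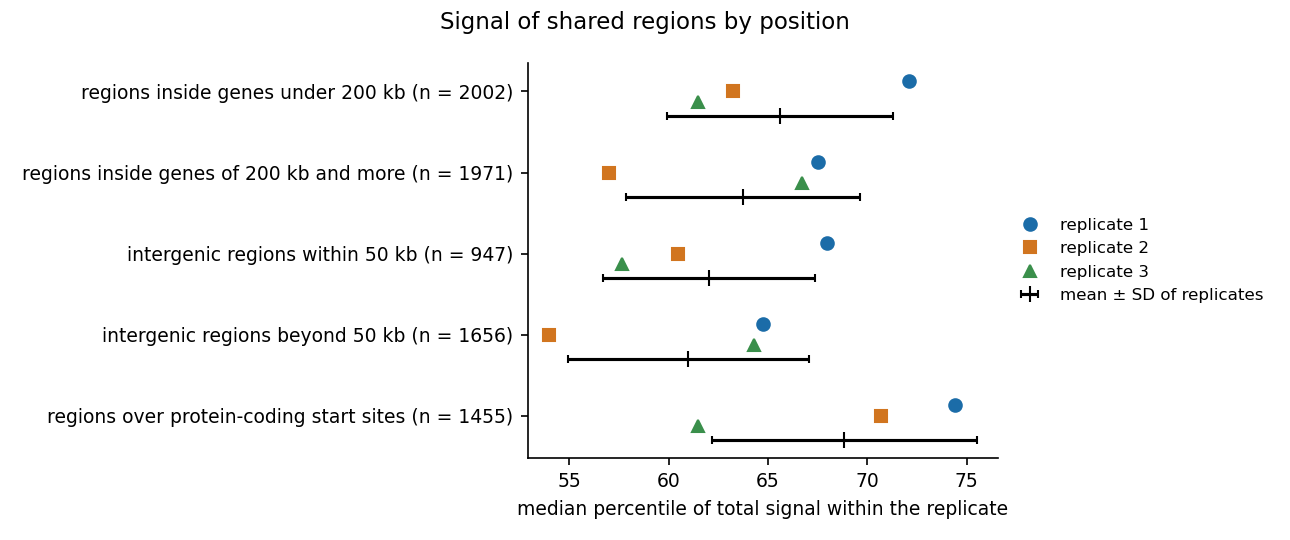
Median percentile of total signal within each replicate for regions inside genes under 200 kb and for 4 other kinds of shared region, with symbols for replicates and bars for the mean ± SD of the 3. Regions inside genes under 200 kb lie above the nearby intergenic regions in every replicate, and replicate 3 reverses the order against regions in longer genes.

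Inside the host genes, regions were fewest near the ends. Of all regions, 6.04%, 5.99% and 6.04% had their highest signal in the 10% of the gene nearest its start, where 8.94% of the allowed bases lay. Allowed bases are those of the host genes outside coding exons and more than 1 kb from a start site. Between 30% and 50% of the way along the gene, each stretch of 10% held 12.3% to 12.8% of the regions, against 10.2% of the allowed bases. The last 10% of the gene held 8.04%, 7.84% and 7.99% against 9.76%. The rule keeps the whole region more than 1 kb from start sites, so its midpoint must lie further off, the more so the longer the region. The allowed bases leave out only 1 kb. The part of the rule in the low share near the start was not tested.

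The first intron held more than its share. The place of highest signal lay in the first intron of the main transcript in 33.9% of regions in replicates 1 and 2 and 34.0% in replicate 3. The first intron made up 28.4% of the allowed bases. The difference was 5.51 ± 0.0865 percentage points (SD, n = 3; exact two-sided sign-flip permutation test, p = 0.25, the smallest possible). The 3 replicates rest on the same regions, so their spread is not that between embryos. Without replicate 3 the difference was 6.18 points. Later introns held 56.7% of the places, UTR exons 2.43%, coding exons 1.23%, and 5.73% lay outside the main transcript.

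The replicates placed the highest signal close together in many regions. The median distance was 103 bp between replicates 1 and 2, 250.5 bp between 1 and 3 and 288.5 bp between 2 and 3. It was within 500 bp in 73.8%, 63.5% and 62.3% of regions. All 3 places lay within 500 bp in 1004 regions (50.1%) and within 100 bp in 411 (20.5%). Regions over start sites had larger medians, 120, 343 and 403 bp, and distant intergenic regions had 86.5, 224 and 233 bp.

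The sequence at the highest signal was richer in G and C than the sequence 1 kb away. The median GC content of 300 bp windows was 52.0%, 52.3% and 49.3% at the highest signal in replicates 1, 2 and 3, and 47.3%, 47.3% and 47.7% in the flanks 1 kb to either side. The difference was 3.78 ± 1.84 percentage points (SD, n = 3; exact two-sided sign-flip permutation test, p = 0.25). It was smallest in replicate 3, at 1.67 points. The replicates rest on the same regions and their windows often overlap, so the spread is not that between embryos. Regions over start sites had 53.7%, 54.0% and 50.3% at the highest signal and 49.3% to 49.7% in the flanks.

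Short motifs of DNA-binding factors, not all of them known for the pad, were then counted at the highest signal and in the flanks. Of 19 motifs, 9 were more frequent at the highest signal in every replicate, 5 were less frequent in every replicate and 5 were mixed. The replicates rest on the same regions and their windows often overlap, so the spread of these values is not that between embryos. The Twist E-box (CATCTG), a site of basic helix-loop-helix factors and not only of those of the mesenchyme, was found in 27.6%, 28.4% and 28.5% of windows. In the flanks it was found in 23.6% on average. Its difference of 4.55 ± 0.253 points (SD, n = 3; exact permutation p = 0.25) was the largest gain of the 19 in percentage points with all 3 replicates. Without replicate 3 it was 3.69 points and no longer the largest. EBF (CCCNNGGG) gained 3.06 ± 0.609 points, and without replicate 3 it gained 4.38, more than the Twist E-box. AP-2 (GCCNNNGGC) gained 2.58 ± 1.23 points, TEAD (GGAATG) 2.46 ± 1.46 and NFI (TTGGCA) 1.32 ± 0.175. EBF was found in 12.4% of windows and 9.29% of flanks on average, and AP-2 in 10.7% and 8.14%. In proportion to their flank shares both gained more than the Twist E-box. TEAD gained most in replicate 3, with 1.57, 1.65 and 4.15 points, and without replicate 3 it gained 1.51. NFI gained 0.772 without replicate 1. AP-1 (TGANTCA), MEIS (TGACAG), ETS (CCGGAAG) and GLI (TGGGTGGTC) gained less than 1 point each, AP-1 gained 0.337 without replicate 3, and GLI was found in under 1% of windows.

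The GATA factor motif and 4 others were less frequent at the highest signal in every replicate. The GATA factor motif (AGATAA) was found in 8.79%, 8.89% and 12.4% of windows against 14.8% in the flanks, a difference of -4.76 ± 2.19 points (SD, n = 3; exact permutation p = 0.25). The homeodomain motif (TAATTA) differed by -3.01 ± 1.44 points, SOX (ACAATG) by -2.50 ± 0.803, RUNX (TGTGGTT) by -1.17 ± 0.672 and HNF1 (GTTAATNAT) by -0.441 ± 0.144. TCF/LEF (CTTTGAT), the site of Lef1 and its relatives, was found in 4.10% ± 0.556 of windows and 4.38% of flanks, and PRDM1 (GAAAGTG), the site of Prdm1, in 4.98% ± 0.999 and 5.54%. Neither kept 1 direction over the replicates, nor did forkhead (TGTTTAC), nuclear receptor (AGGTCA) or CTCF (AGGGGGCG). GC content differs between the windows compared, and its part in these motif differences was not tested.

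Other kinds of region gave the same direction for the Twist E-box, the GATA factor motif and AP-2. The Twist E-box gained 4.96 points in regions of genes of 200 kb and more, 4.48 in distant intergenic regions, 2.92 at start sites and 1.53 in nearby intergenic regions. The GATA factor motif differed by -5.43, -5.28, -3.97 and -3.68 points in the same order. AP-2 gained 4.58, 5.74, 2.92 and 4.77 points there, each more than its 2.58 in the regions of genes under 200 kb. EBF, TEAD, MEIS, GLI, homeodomain, SOX and HNF1 also kept their direction in each of these kinds. AP-1, RUNX, NFI and ETS were less uniform. AP-1 differed by -0.101, -0.584, 1.37 and -0.774 points in the same order, and RUNX by 0.778, -0.473, -0.664 and 0.0176. NFI and ETS were negative only in nearby intergenic regions, at -0.686 and -0.0352 points. No difference between kinds of region was tested for motifs.

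**Figure D5:**
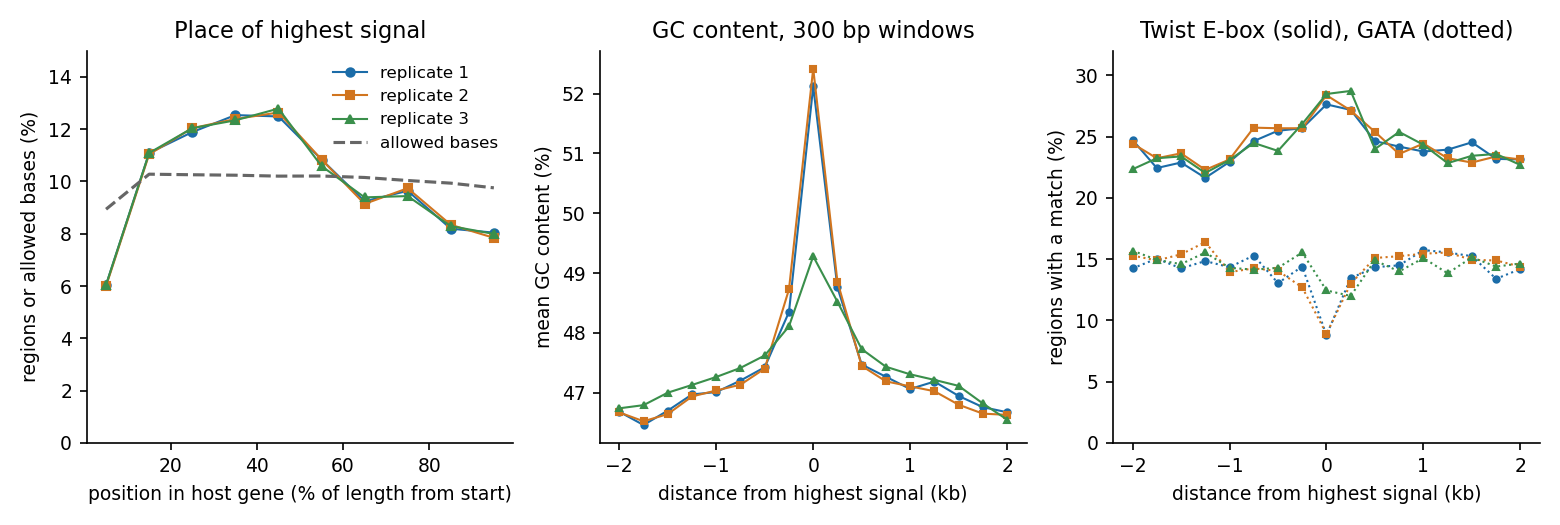
Left, share of regions with their highest signal in each 10% of the host gene from its start, by replicate, against the share of allowed bases (dashed). Middle and right, mean GC content and share of regions with a Twist E-box (solid) or GATA (dotted) match in 300 bp windows from 2 kb before to 2 kb after the highest signal; at the centre the E-box is found in 27.6% to 28.5% of regions and GATA in 8.79% to 12.4%.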

How the data were processed

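H3K4me1 was mapped by CUT&Tag in 3 whisker pads at embryonic day 12. Per the submitters' processing notes, the tools were Bowtie2 2.3, SAMtools 0.1.19, bedtools and SEACR 1.3 with the build mm10. Peak calling by the authors was done per replicate and did not use IgG; the strongest 1% of covered stretches were retained. The deposited lists give each peak's position, total signal and maximum signal in whole numbers with no scaling to depth. The treatment of duplicate reads is not given in the sources used here. With a fixed share retained, a region absent from a list may still carry the mark, and the lists give no read numbers. A single nominal sequencing depth is stated by the study, while the depth reached per library was not measured here.

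Peaks were merged and assigned to GENCODE vM21 genes with Python 3.11.15, numpy 2.4.6 and scipy 1.17.1, using 20807 protein-coding genes and 39515 start sites of basic transcripts. A region took the percentile of its strongest peak. In a region over 2 genes the longer was used for location. Sequence came from the RefSeq assembly of GRCm38. Groups and replicate numbers were taken from titles. Means over replicates were compared by exact two-sided sign-flip permutation tests, whose smallest p with 3 replicates is 0.25, so none can pass 0.05. Wilson intervals cover counting error only. The functions were tested on simulated data.

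The members and lists were chosen with earlier results of these data known. The genes named were the hosts of the 20 highest regions, the 10 genes with most regions, the whisker genes with a region, up to 6 genes with most regions in each other list, and genes at the limits of the rule. Others named are said to be so. A few genes that meet this rule are not reported here. A sequence was printed only where its 300 bases overlapped no exon and lay off chromosome 18. The 3 IgG samples were not used here. Alternatives covered overlap, peak strength, joining of peaks, start sites, signal measures, windows, backgrounds and leaving out each replicate.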

Additional observations from a re-analysis of the deposited data

How the results depend on the processing

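Of 242 values recomputed under alternative settings, 226 were counted as unchanged. Of these, 109 were single motif values. For values with a permutation test, motif values among them, being unchanged meant only that the mean kept its sign. Their size had no limit, and no p could pass the threshold with so few replicates. TEAD was thus counted as unchanged at 1.51 points without replicate 3, against 2.46 with all replicates. All values counted as moved in size were ones without such a test. With the stronger 50% of each list there were 981 regions, 978 reported regions were overlapped, 3.30% of all genes held a region, and the shares of the whisker, Wnt and kidney lists were 10%, 27.7% and 0%. Leaving out 1 replicate gave 2136 to 2822 regions, which overlapped 99.3% to 99.6% of those reported. The rule nearly ensures this overlap, since a reported region has a peak in every replicate. With 1 replicate left out, the median percentile was 57.4 to 63.1. The difference from regions in genes of 200 kb and more was then -0.0237 to 1.95, and the median distance between places of highest signal 114 to 288.5 bp. The lowest of each of these 3 ranges, and the 2822 regions, came without replicate 3. Per base of peak length the difference from nearby intergenic regions was -0.241 and that from start-site regions 2.43, and by maximum signal the latter was 2.33. The causes were not tested. The first-intron difference stayed between 3.66 and 8.16 percentage points. Both backgrounds that gave these 2 limits, the start sites of all protein-coding transcripts (1897 regions) and the length-matched genes were chosen after seeing the data.

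The mean motif difference kept its sign under 6 alternatives for 15 of 19 motifs. Leaving out 1 replicate gave -0.142 (without replicate 3) to 0.259 points for forkhead and -0.351 (without replicate 1) to 0.798 for nuclear receptor. With the stronger 50% of each list nuclear receptor turned to -0.883 and MEIS to -0.0849, and with flanks 2 kb away GLI turned to -0.025.

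Between groups of samples, no paired analysis was possible because only 1 group of samples entered the tests. The tests themselves used differences between kinds of region or window taken within each replicate, so those values were paired by replicate. IgG was not used here, so no background stands beside the values, and a gene without a region is not shown to lack the mark.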
